A study of Mus musculus with 12 samples.

Results

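Ctsb, Ctsc, Ctsd, Ctsh, Ctsl, Ctss, Ctsz, Lgmn, Cd68 and Lyz2 are 10 genes of the lysosome that macrophages and microglia express strongly, and their RNA was followed here in whole mouse retina. They were picked by gene symbol from a table of 32867 genes, and all 10 were found once and passed the filter on low counts in every comparison. In Pde6b rd10 retinae 8 of the 10 genes rose over C3H wild-type retinae, from 1.63-fold for Ctsb to 15.7-fold for Lyz2, where 15.9% of all genes tested rose. In Pde6b rd1 retinae Ctsh fell 2.17-fold and Cd68 rose 1.90-fold, 2 of 10 called where 15% of all genes tested were, and both calls were lost with limma on log2(FPKM + 1). In Prph rd2 retinae Lyz2 was the one gene of the 10 called, lower by 1.54-fold, where 4.57% of all genes tested were called, and that call was lost under several other settings.

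A phagocyte takes up dying cells and debris into a vesicle that fuses with lysosomes, where an acid lumen holds proteases, glycosidases, lipases and lysozyme. Cathepsins are the lysosomal proteases: B, C, H, L, S and Z are cysteine proteases of the papain type, D is an aspartic protease, and legumain is a separate cysteine protease that cuts after asparagine and trims other cathepsins to their mature forms. In the retina these enzymes are made by microglia and invading macrophages, but also by pigment epithelium, Mueller glia and neurons, and of the 10 genes Lyz2 and Cd68 are the ones most often used as markers of phagocytes.

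RNA of 12 whole-retina samples, 3 per group, was sequenced after removal of ribosomal RNA. The groups were C3H with wild-type Pde6b and Prph2, Pde6b rd1 (postnatal day 13), Pde6b rd10 (day 23) and Prph rd2 (day 29), and the labels place each mutant at its peak of photoreceptor death. All 3 mutants are germline alleles carried in every cell; the rd1 and rd10 alleles hit the rod phosphodiesterase subunit Pde6b, and rd2 hits the outer segment disc protein peripherin. By the study's methods C3H, rd1 and rd2 share a C3H background and rd10 is on C57Bl6/J, whereas the labels give C57BL6/J for rd2. The C3H samples carry the labels day 13, day 23 and day 29, 1 sample each. Nothing in the labels says whether the 3 samples of a group came from separate animals, so each p measures the spread between these samples.

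Each library held 17049495 to 24755890 reads in genes. Pde6b, the gene hit in rd1 and rd10, had 24335 to 29129 reads in C3H, 4937 to 6253 in rd1 and 16340 to 21014 in rd10; Prph2 had 52768 to 65756 reads in C3H and 30656 to 34634 in rd2. The C3H samples, labelled with 3 different days, differed from each other by over 1.5-fold at 9 to 33 genes per pair, of 12132 to 12365 compared. It was 13 to 46 between rd1 samples of 1 day, 12 to 52 between rd10 samples and 56 to 194 between rd2 samples. The C3H samples thus differed no more than samples labelled with the same day. Whether their ages are as labelled was not tested. Xist had 8 to 10 reads in C3H, 64914 to 83716 in rd1, 13428 to 18861 in rd10 and 37187 to 47452 in rd2, and the Y-linked Ddx3y had 1481 to 2005 reads in C3H, 0 in rd1, 1056 to 1696 in rd10 and 757 to 907 in rd2. These sex-linked transcripts, the strain for rd10 and, by the labels, the strain for rd2 differ together with the genotype, so their parts cannot be told apart. Each model was also sampled at 1 postnatal day, while the C3H labels give 3. Age and genotype thus cannot be told apart in the comparisons with C3H either. All comparisons with C3H share the same 3 control samples. In whole retina, fewer cells of a type and less RNA per cell cannot be told apart.

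Of the 10 genes, 8 have a promoter window in RefSeq (build GRCm38.p6); Ctsb and Ctsh have none there. The 250 bases before the start were searched on both strands for 4 short motifs: the E-box CACGTG, the core of sites bound by the lysosomal regulators TFEB and TFE3; GAGGAA, a core of sites bound by the myeloid factor PU.1; the GC box GGGCGG; and TATAAA. The E-box stood before a start of 3 of the 8 genes (Ctsd, Ctsl and Lgmn), in 3 of their 9 windows, and 6.02% of all 32851 windows hold it. The Ctsl window and the Lgmn window with the E-box lie inside the annotated gene, past its outermost start. The other Lgmn window, which spans that outermost start with 85 of its 250 bases in annotated exons, holds no E-box. Of the Ctsd window 211 of 250 bases lie in annotated exons. GAGGAA stood before 3 others (Ctss, Ctsc and Cd68), and 23.3% of all windows hold it. The GC box stood before 6, against 32.7% of all windows, and TATAAA before 2, against 12.4%. The windows of the 3 genes with GAGGAA and the part of the Lyz2 window outside annotated exons are printed to show what sits ahead of 4 genes that rose in rd10. Capitals mark GAGGAA or, on the opposite strand, TTCCTC; none of the 4 motifs was found in the Lyz2 window.
Ctss, chr3:95526536-95526785, plus strand: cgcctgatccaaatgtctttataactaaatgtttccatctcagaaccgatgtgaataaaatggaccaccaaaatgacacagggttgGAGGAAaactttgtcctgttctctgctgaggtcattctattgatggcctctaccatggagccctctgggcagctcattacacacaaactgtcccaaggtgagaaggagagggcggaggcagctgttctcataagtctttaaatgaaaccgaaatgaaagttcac
Ctsc, chr7:88277835-88278084, plus strand: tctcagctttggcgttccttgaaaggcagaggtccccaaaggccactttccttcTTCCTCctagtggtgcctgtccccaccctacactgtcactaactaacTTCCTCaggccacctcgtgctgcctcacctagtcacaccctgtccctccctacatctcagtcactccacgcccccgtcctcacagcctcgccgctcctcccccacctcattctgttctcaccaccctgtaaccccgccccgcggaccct
Cd68, chr11:69666171-69666420, minus strand: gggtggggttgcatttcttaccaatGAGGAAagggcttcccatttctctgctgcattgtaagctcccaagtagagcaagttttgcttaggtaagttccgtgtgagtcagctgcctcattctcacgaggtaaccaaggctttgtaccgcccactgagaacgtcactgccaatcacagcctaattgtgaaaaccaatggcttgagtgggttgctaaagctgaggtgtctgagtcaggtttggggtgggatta
Lyz2, chr10:117282322-117282522, minus strand: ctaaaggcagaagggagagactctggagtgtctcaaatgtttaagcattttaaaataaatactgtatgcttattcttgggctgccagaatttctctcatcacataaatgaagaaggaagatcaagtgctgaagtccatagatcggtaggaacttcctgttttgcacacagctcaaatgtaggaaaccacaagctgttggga
In Ctss the motif began 164 bases before the start, in Cd68 225 bases, and in Ctsc it stood on the opposite strand at 196 and 149 bases. A match gives letters only, and no binding was measured.

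Lyz2 (chr10:117277331-117282321, minus strand), the lysozyme of macrophages and other myeloid cells, had the steepest rise. Its level in FPKM, a read count scaled to transcript length and library size, was 2.72, 2.18 and 3.07 in the C3H samples and 3.17, 3.21 and 3.16 in the rd1 samples. In rd10 it was 42.4, 42.1 and 44.5, and in rd2 1.35, 1.81 and 2.1. The rd10 samples thus stood far above all 9 others, and the rd2 samples lay just under the lowest C3H sample. The log2 fold change over C3H was 3.98 ± 0.09 (SE, n = 3 per group) in rd10, with an adjusted p of 1.29e-18 in edgeR's quasi-likelihood test. The near-identical gene Lyz1, with which Lyz2 shares reads, had between 0 and 5 reads in each library.

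Cd68 (chr11:69664213-69666153, minus strand), the heavily glycosylated membrane protein of late endosomes and lysosomes used to stain active phagocytes, was the least abundant of the 10 in 3 groups. It had 0.842, 1.03 and 0.723 FPKM in C3H, 1.82, 1.45 and 1.94 in rd1, 6.04, 7.48 and 5.73 in rd10 and 0.840, 0.765 and 0.656 in rd2. Both Pde6b models were above every C3H sample, and rd2 overlapped C3H. These levels rested on few reads, 18 to 31 in C3H and 144 to 188 in rd10. Cd68 rose in rd10 by 2.81 ± 0.18 log2 units (adjusted p 3.11e-11) and in rd1 by 0.93 ± 0.25 (adjusted p 0.00397).

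Ctss (chr3:95526786-95556403, plus strand), which stays active at neutral pH and cuts the invariant chain of MHC class II, had 9.31, 9.43 and 9.11 FPKM in C3H and 49.1, 43.5 and 47.3 in rd10. In rd1 it had 7.18, 6.82 and 6.99 FPKM, and in rd2 9.55, 10.7 and 9.87. The rd1 samples lay under and the rd10 samples over the C3H range, while rd2 stood barely above it. Ctss rose in rd10 by 2.27 ± 0.07 log2 units (adjusted p 8.25e-17). In rd1 the log2 change was -0.48 ± 0.09 (adjusted p 1.13e-04), which is under the 1.5-fold a call needs.

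Ctsh (chr9:90054152-90076089, plus strand), an aminopeptidase among the cathepsins, went in opposite directions in the 2 Pde6b models. Its level was 1.85, 1.77 and 1.68 FPKM in C3H, 0.896, 0.900 and 0.773 in rd1, 8.83, 8.52 and 8.31 in rd10, and 1.64, 2.07 and 1.98 in rd2. No rd1 value reached the lowest C3H value and no rd10 value came near the highest, while rd2 and C3H overlapped. Ctsh fell in rd1 by 1.12 ± 0.13 on the log2 scale (adjusted p 1.07e-07) and rose in rd10 by 2.22 ± 0.08 (adjusted p 1.04e-15). The direct contrast of rd10 with rd1 was 3.36 ± 0.10 log2 units.

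Ctsc (chr7:88278085-88310888, plus strand), the dipeptidyl peptidase that activates granule serine proteases, had 3.99, 3.86 and 3.93 FPKM in C3H and 10.1, 9.53 and 10.1 in rd10. It rose in rd10 by 1.28 ± 0.06 log2 units (adjusted p 8.96e-14), and its rd1 values of 3.76 to 4.45 FPKM spanned the C3H range. Ctsz (chr2:174427493-174439039, minus strand), a carboxypeptidase also called cathepsin X, had 10.6, 9.61 and 9.95 FPKM in C3H and 24.7, 26.7 and 21.8 in rd10, a rise of 1.23 ± 0.08 (adjusted p 5.12e-11). Both genes thus moved by a similar factor from different starting levels, and neither was called in rd1 or rd2.

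Ctsb (chr14:63122462-63145923, plus strand) and Ctsd (chr7:142375911-142388038, minus strand), the general-purpose cysteine and aspartic proteases of most cells, changed by smaller factors but from high levels. Ctsb had 48.8, 50.5 and 48.7 FPKM in C3H, 37.4, 38.6 and 38.2 in rd1, 82.7, 86.5 and 81.0 in rd10 and 48.6, 48.4 and 48.2 in rd2. Ctsd had 40.1, 40.1 and 40.5 FPKM in C3H, 36.4, 37.1 and 35.9 in rd1, 83.4, 89.6 and 75.5 in rd10 and 39.7, 43.7 and 35.5 in rd2. For both, rd10 was highest and rd1 lay under C3H. Ctsd rose in rd10 by 0.99 ± 0.05 log2 units (adjusted p 1.57e-12) and Ctsb by 0.70 ± 0.04 (adjusted p 1.43e-12). Of the Ctsb exons, 774 of 6051 bases are shared with the antisense gene Fdft1, which had 817 to 1605 reads, and of the Ctsd exons 808 of 2351 are shared with Gm49369 on the same strand. The strand setting of the counting is not given in the sources used here, so the Ctsb level is uncertain to that extent, and the Ctsd level may be uncertain under either setting.

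Ctsl (chr13:64359337-64370890, minus strand), a broad endopeptidase, and Lgmn (chr12:102394084-102439813, minus strand), legumain, moved least in rd10. Ctsl was at 15.4 to 16.4 FPKM in C3H, 12.4 to 13.2 in rd1, 20.9 to 22.5 in rd10 and 16.3 to 17.1 in rd2. Lgmn was at 68.5 to 71.6 FPKM in C3H, 71.5 to 73.4 in rd1, 79.7 to 84.0 in rd10 and 54.7 to 62.4 in rd2. In rd10 the log2 changes were 0.39 ± 0.04 for Ctsl (adjusted p 1.93e-07) and 0.19 ± 0.04 for Lgmn (adjusted p 5.99e-04), both under 1.5-fold. Lgmn was the one gene of the 10 with an adjusted p under 0.05 in rd2, at -0.31 ± 0.05 (adjusted p 0.00196), also under 1.5-fold, where 9.7% of all genes tested had such a p.

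**Figure D1:**
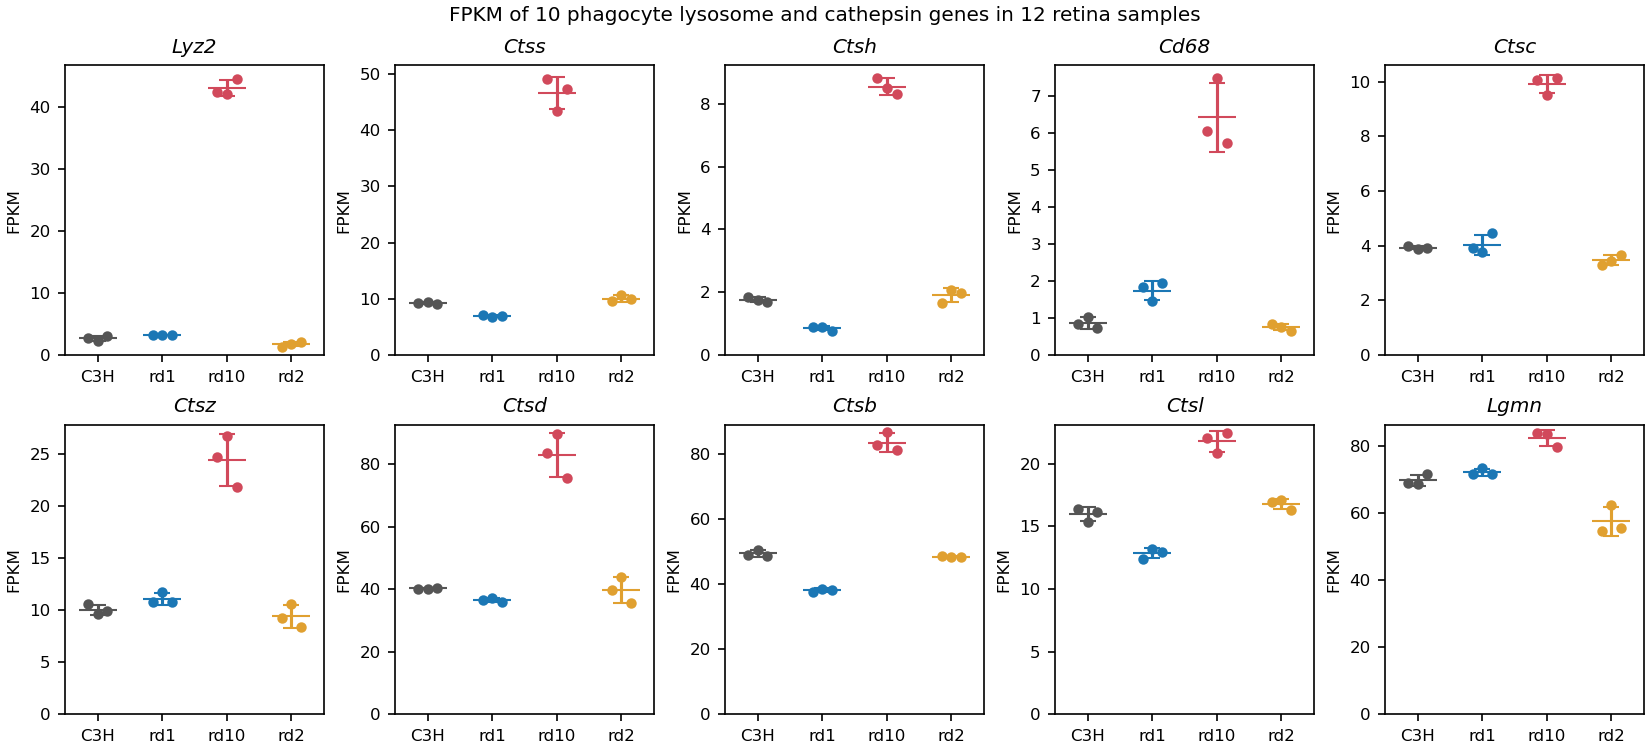
FPKM (vertical axes, from 0) of each of the 10 genes in the 3 samples (points) of C3H, rd1, rd10 and rd2, with the mean and SD as bars. The rd10 points lie above all others in every panel, by the largest ratio for Lyz2 (42.1 to 44.5 against at most 3.21) and by the smallest for Lgmn (79.7 to 84.0 against at most 73.4).

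Calls follow the study's thresholds, a change of at least 1.5-fold at p under 0.05 before adjustment. In rd10 against C3H, 8 of the 10 genes were called higher and 0 lower, where 15.9% of the 18704 genes tested were called higher. Without the fold threshold all 10 had an adjusted p under 0.05, as did 54.1% of all genes tested. The median log2 change of the 10 was 1.26, against -0.002 over all genes tested. The FPKM ranges of the 2 groups did not overlap for any of the 10, nor for 58.3% of all genes tested. The call of 8 was the same when any 1 of the 6 samples was left out. It was also 8 against the day 23 C3H sample alone, a fit with 1 control sample whose spread comes from the 3 rd10 samples only.

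In rd1 against C3H, Ctsh was called lower and Cd68 higher, 2 of 10, where 15% of the 18310 genes tested were called in either direction, 8.98% higher and 6.03% lower. Ctsb, Ctsd, Ctsl and Ctss had adjusted p under 0.05 with log2 changes between -0.48 and -0.22, all under 1.5-fold, and 43.2% of all genes tested had such a p. Ctsc, Ctsz, Lgmn and Lyz2 had log2 changes between -0.03 and 0.20 with adjusted p of 0.346 to 0.755. FPKM ranges did not overlap for 8 of the 10, all but Ctsc and Lgmn, and for 52.5% of all genes tested. With limma on log2(FPKM + 1) neither was called, at -0.58 for Ctsh and 0.55 for Cd68, both under 1.5-fold on that scale. Against the day 13 C3H sample alone 2 of the 10 were called, with 1 control sample and the spread taken from the 3 rd1 samples only.

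In rd2 against C3H, Lyz2 was called lower, 1 of 10, where 4.57% of the 18581 genes tested were called in either direction and 1.89% lower. Its log2 change was -0.62 ± 0.20, with an unadjusted p of 0.00840 and an adjusted p of 0.0707 in edgeR. The call was lost without C3H replicate 3, where the log2 change was -0.50, and without rd2 replicate 1, where it was -0.47. The other 9 genes had log2 changes between -0.31 and 0.08. FPKM ranges did not overlap for 5 of the 10 and for 29.9% of all genes tested.

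**Figure D2:**
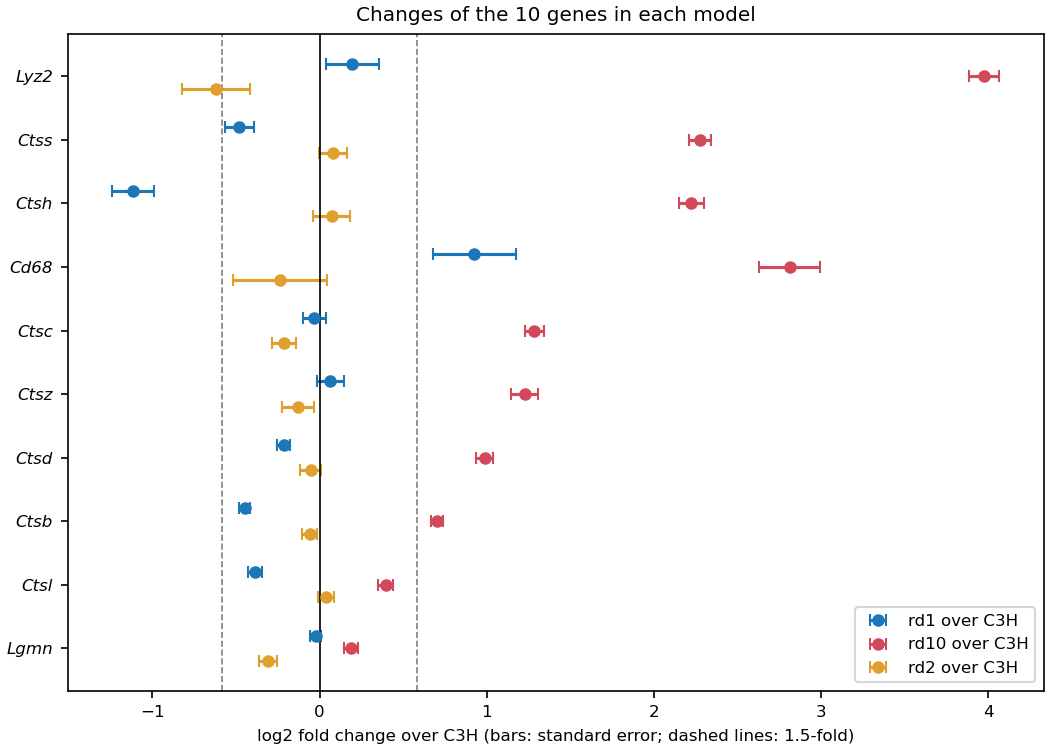
Log2 fold change over C3H (horizontal axis) of the 10 genes in rd1, rd10 and rd2, with standard errors from edgeR as bars and dashed lines at 1.5-fold. In rd10 8 genes lie beyond the right line, from 0.70 for Ctsb to 3.98 for Lyz2, while in rd1 and rd2 most lie between the lines.

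The models were also contrasted directly. Against rd1, rd10 had 9 of the 10 called higher, all but Lgmn at 0.24 ± 0.05 log2 units, with 17.6% of the 19616 genes tested called higher and 63.9% not overlapping, as none of the 10 did. Against rd2, rd10 had 8 called higher, all but Ctsl at 0.36 ± 0.04 and Lgmn at 0.50 ± 0.05, with 13.5% of all genes called higher and 48.5% not overlapping. Against rd1, rd2 had Ctsh higher by 1.21 ± 0.11 and Cd68 and Lyz2 lower, by -1.14 ± 0.22 and -0.79 ± 0.15, so 1 of the 10 was called higher and 2 lower, where 8.21% and 8.66% of all genes were. Ctss, at 0.58 ± 0.08, lay at the edge of the 1.5-fold threshold in that contrast. FPKM ranges of rd2 and rd1 did not overlap for 9 of the 10, all but Ctsd, and for 48.4% of all genes.

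Summed over the 10 genes, the level was 204 ± 1.5 FPKM in C3H (SD, n = 3), 187 ± 2.42 in rd1, 409 ± 11.5 in rd10 and 190 ± 9.96 in rd2. Lgmn was the most abundant in C3H, rd1 and rd2, followed by Ctsb and Ctsd. In rd10 Ctsb, Ctsd and Lgmn stood at 83.4, 82.9 and 82.5 FPKM, and the order among those 3 is within their spread. Ctss and Lyz2 came next in rd10 at 46.6 and 43.0 FPKM, up from sixth and eighth place in C3H. Lgmn made up 34.2% ± 0.57 of the sum in C3H and 20.1% ± 0.16 in rd10, whereas Lyz2 went from 1.30% ± 0.21 to 10.5% ± 0.63 and Ctss from 4.56% ± 0.11 to 11.4% ± 0.87. Of the 206 FPKM by which the sum differed between rd10 and C3H, Ctsd gave 42.6 ± 4.08 (SE), Lyz2 40.4 ± 0.80, Ctss 37.3 ± 1.65 and Ctsb 34.1 ± 1.73. These 4 differences were of similar size, while the fold changes of the same genes ran from 1.63 to 15.7.

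**Figure D3:**
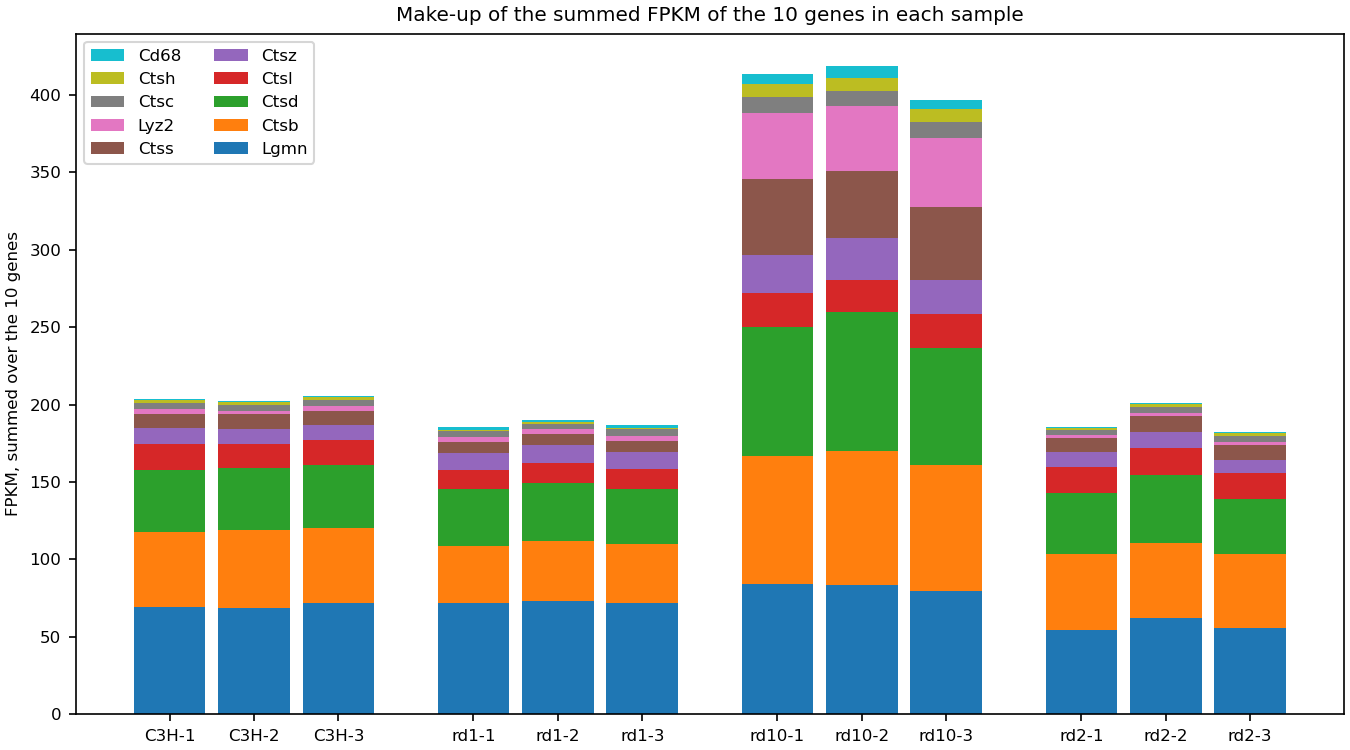
FPKM of the 10 genes stacked in each of the 12 samples. Bars reach 202 to 205 FPKM in C3H and 396 to 419 in rd10, where the Lyz2 and Ctss segments are widened and the Lgmn segment is nearly as in C3H.

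The other lysosomal genes were counted by list in rd10, where 15.9% of the 18704 genes tested were called higher and 1511 of the 18704 lower. Of 28 soluble hydrolases tested, 9 rose and 2 fell, with a median log2 change of 0.33. Galns and Gaa, which break down keratan sulfate and glycogen, rose by 1.52 ± 0.11 and 0.95 ± 0.05. Sgsh, the sulfamidase of heparan sulfate breakdown, fell by 2.01 ± 0.06 on the log2 scale, from 1209 to 1513 reads in C3H to 308 to 405 in rd10, and Hyal1, a hyaluronidase, fell by 0.68 ± 0.18. Of 20 membrane proteins and cofactors, 5 rose and 1 fell. Cd63, a tetraspanin of late endosomes, rose by 1.47 ± 0.06 and Grn, progranulin, by 1.03 ± 0.07, alongside Lamp2, Laptm5 and Slc11a1, while the membrane protein Cln3 fell by 0.74 ± 0.07. Of 15 subunits of the vacuolar ATPase, which acidifies the lumen, only Atp6v0c was called, higher by 0.88 ± 0.04.

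Of the 5 other cathepsins tested, Ctsk, known from bone resorption, rose by 1.27 ± 0.25, and Ctsa, a serine carboxypeptidase, was at 0.51 ± 0.05, under 1.5-fold. None of 3 cystatins, the inhibitors of cysteine cathepsins, was called in rd10, and the abundant Cst3 was at -0.42 ± 0.05 (edgeR adjusted p 5.01e-07). Of 5 transcription factors of lysosomal and myeloid genes tested, 4 passed the filter on low counts in all 3 comparisons with C3H. Of these Irf8 rose by 2.22 ± 0.12 and Tfeb by 0.61 ± 0.11, and Tfe3 and Mitf were not called. Spi1, which encodes PU.1, was at 2.99 ± 0.29. It passed the filter in rd10 but not in rd1, which sets its direction. In rd1, 2 of 28 hydrolases fell (Hyal1 by 0.72 ± 0.17 and Idua by 0.63 ± 0.15), where 6.03% of all genes tested fell. None of the 5 other cathepsins, nor any of the cystatins, membrane proteins, ATPase subunits or factors, was called there. In rd2 Ctsk was higher by 0.82 ± 0.28 (edgeR adjusted p 0.0767). The metal transporter Slc11a1 was lower by 0.75 ± 0.35 (edgeR adjusted p 0.206), on 8 to 20 reads against 18 to 25 in C3H. None of the other genes in those 6 lists was called in rd2, where 4.57% of all genes tested were.

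**Figure D4:**
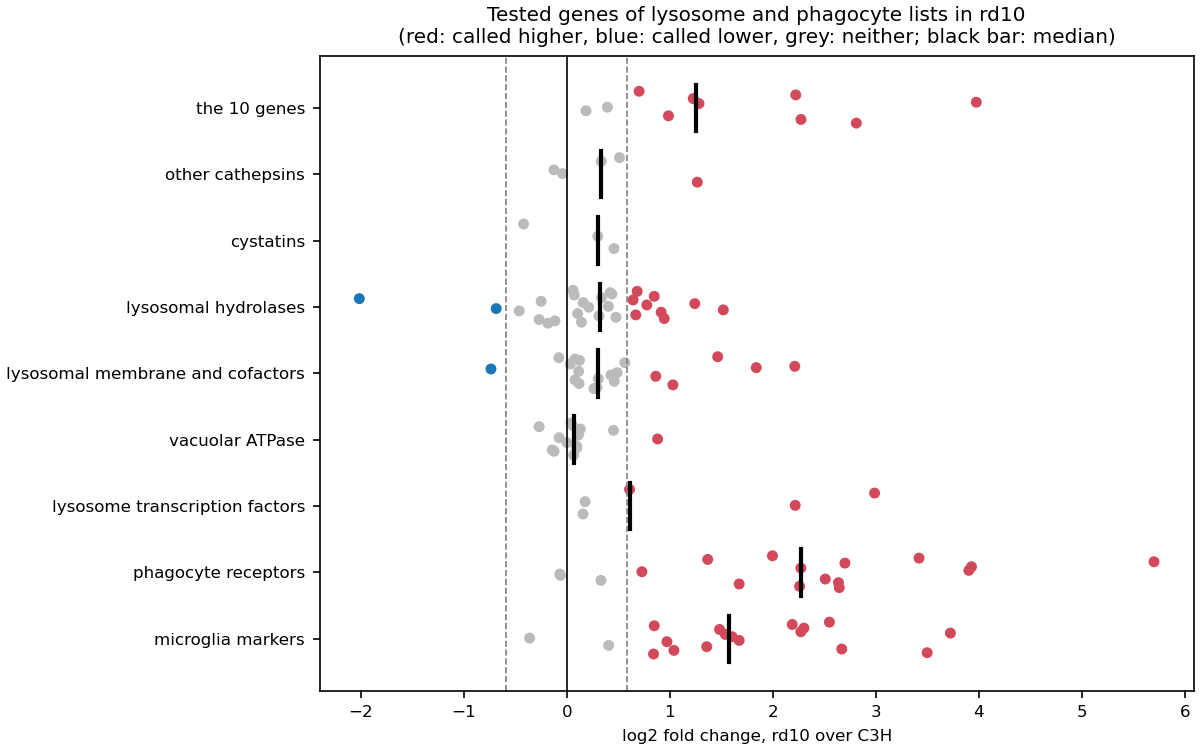
Log2 fold change of rd10 over C3H (horizontal axis) for each tested gene (point) of the 10 genes and 8 further lists, with list medians as black bars and dashed lines at 1.5-fold. The 10 genes, phagocyte receptors and microglia markers have medians of 1.26, 2.27 and 1.57, and the hydrolases, membrane proteins and ATPase subunits 0.33, 0.30 and 0.07. The receptors include Clec7a, which passed the filter on low counts in rd10 but not in rd1 or rd2. They also include Msr1 and Cd14, which passed it in rd10 and rd2 but not in rd1.

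Phagocyte genes outside the lysosome moved with the 10 genes in rd10. Of 17 receptors and bridging proteins for uptake, 14 passed the filter on low counts in all 3 comparisons with C3H. Of these 11 rose, where 15.9% of all genes tested rose. Among them, the inhibitory Fc receptor Fcgr2b rose by 3.93 ± 0.18 and the phosphatidylserine bridge Pros1 by 2.26 ± 0.09. The engulfment receptor Mertk was at 0.33 ± 0.08. The glucan receptor Clec7a, at 5.70 ± 0.21, passed the filter in rd10 but not in rd1 or rd2, which sets its direction. It had 3 to 10 reads in C3H. Of 8 antigen presentation genes 5 passed that filter only through their rd10 counts, which sets their direction, so the list is not counted. Of the 3 that passed in all 3 comparisons with C3H, the class II invariant chain Cd74 rose by 4.34 ± 0.15 and the thiol reductase Ifi30 by 1.74 ± 0.12, and H2-DMa was at -0.30 ± 0.14. H2-Ab1 and H2-Aa, chains of MHC class II, had at most 2 reads in any C3H library and were at least 63.5-fold and 68.7-fold higher, set against a floor of 3 reads per library. Cd74 fell in rd1 by 1.01 ± 0.39 on the log2 scale (edgeR unadjusted p 0.0173, adjusted p 0.0415), on 7 to 8 reads against 11 to 24 in C3H. In rd1 the receptor Trem2 rose by 0.72 ± 0.21 and the bridging protein Gas6 fell by 0.64 ± 0.04, of 14 tested. Over all genes tested 8.98% rose and 6.03% fell there. In rd2 Msr1 was at 1.53 ± 0.46 (edgeR adjusted p 0.0505), on 16 to 18 reads against 2 to 8 in C3H. It passed the filter on low counts in rd2 but not in rd1, which sets its direction. No other gene of the 16 tested was called in rd2, where 4.57% of all genes tested were.

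Markers of cell types moved as well. Of 18 microglia markers, none of them at 0, 16 rose in rd10. Of the 17 tested in all 3 comparisons with C3H, 15 rose in rd10. In rd1 1 of 17 tested rose (Fcrls), and in rd2 1 of 18 (Tmem119), where Fcrls and Sall1 fell. Over all genes tested 15.9% rose in rd10, 8.98% in rd1 and 498 of 18581 in rd2, where 1.89% fell. Sall1 was not called in rd10, and P2ry12, a receptor of resting microglia, was at -0.36 ± 0.12 in rd10. Their summed level was 115 to 121 CPM (counts scaled to library size) in C3H, 116 to 120 in rd1, 336 to 359 in rd10 and 105 to 110 in rd2. Of 11 monocyte and macrophage markers 7 passed the filter in rd10, 1 in rd1 and 2 in rd2. Most passed only through their rd10 counts, so their calls are not counted. The list summed to 31.2 to 34.0 CPM in rd10 against 1.21 to 2.07 in C3H, where Clec4n, Plac8, Pf4 and Chil3 were at 0. The chemokine receptor Ccr2 had 0 or 1 read in C3H and was at least 45.2-fold higher. Neutrophil markers summed to at most 0.950 CPM in any library, and lymphocyte markers to 3.27 to 4.17 CPM in rd10 against at most 1.01 elsewhere.

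Markers of other cells of the tissue also differed. Over all genes tested, 15.9% were called higher in rd10 and 1511 of 18704 lower. In rd1 8.98% were called higher and 6.03% lower, and in rd2 498 of 18581 higher. Of 10 Mueller glia markers 3 rose in rd10 (Gfap by 3.19 ± 0.05, Apoe and Vim) and Slc1a3 fell, and 4 fell in rd1 (Glul by 1.54 ± 0.03, Aqp4, Kcnj10 and Apoe). Of 9 pigment epithelium markers tested 4 fell in rd1 (Rgr, Ttr, Lrat and Rpe65) and Tyrp1 rose in rd10, and their sum was 309 CPM in rd1, 313 to 316 in rd10, 369 to 375 in C3H and 381 to 411 in rd2. Of 8 endothelial markers Kdr and Tie1 fell in rd10, and of 10 rod markers 7 fell in rd1 and 5 in rd10 (Nr2e3, Sag, Gnb1, Pde6g and Nrl). Blood markers summed to 44.1 to 54.0 CPM in C3H, rd1 and rd10 and to 71.4 to 82.9 in rd2. Of the 4 tested in all 3 comparisons with C3H, Hbb-bs and Alas2 were higher in rd2. In rd10 2 of these 4 were called higher and 1 lower. The part of any of these cell types in the levels of the 10 genes was not tested.

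Set against the microglia markers, the 10 genes split. The 17 markers summed for this, none of them a lysosomal enzyme, stood at 3.44-fold their C3H level in rd10. The log2 ratio of each gene to that sum, both in CPM, was higher in rd10 than in C3H for Lyz2 by 2.25, for Cd68 by 1.12, for Ctss by 0.54 and for Ctsh by 0.50. It was lower for the other 6, with differences of -0.45 for Ctsc, -0.51 for Ctsz, -0.74 for Ctsd, -1.03 for Ctsb, -1.33 for Ctsl and -1.54 for Lgmn. The 6 include the 4 with the highest levels in C3H. In rd1 the same difference was 0.95 for Cd68 and -1.11 for Ctsh, since the marker sum there was 1.04-fold that of C3H.

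**Figure D5:**
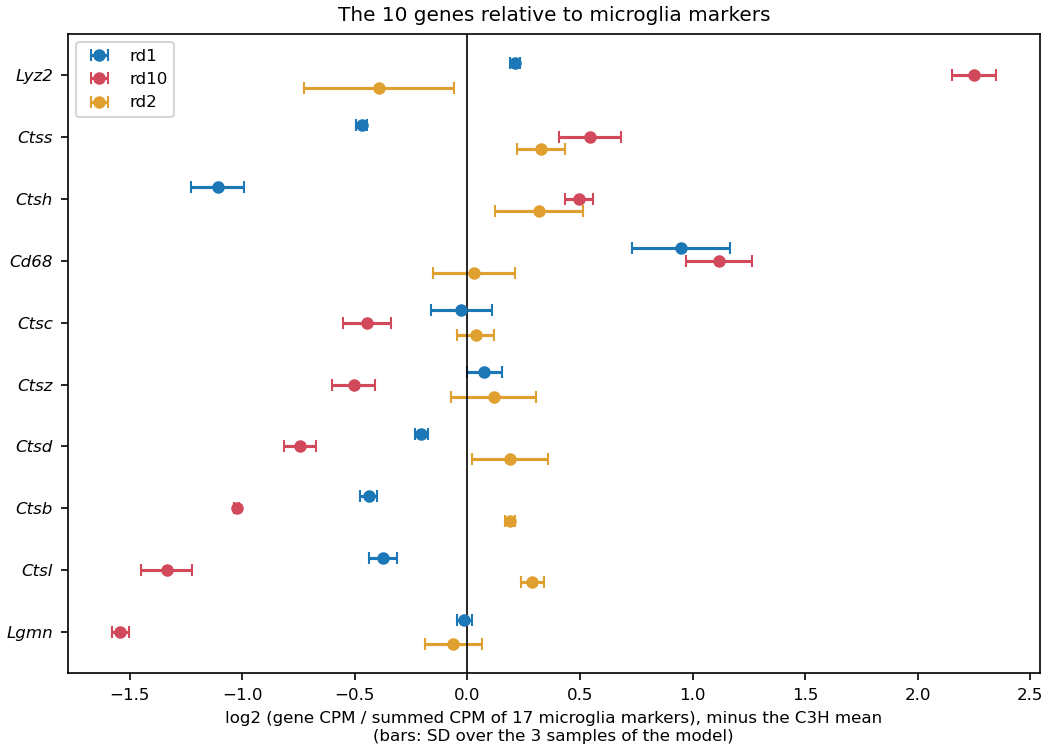
Log2 ratio of each gene's CPM to the summed CPM of 17 microglia markers, as the difference from the C3H mean (horizontal axis), with the SD over 3 samples as bars. In rd10 4 genes lie right of 0, with Lyz2 at 2.25, and 6 lie left, with Lgmn at -1.54.

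Across the 12 samples the 45 pairs of the 10 genes had a median Pearson r of 0.891, from 0.350 to 0.995, on points set mostly by the 3 rd10 samples. Over the 9 samples without rd10 the median was -0.448. There Ctsb, Ctsh, Ctsl and Ctss followed each other, with r of 0.959 for Ctsb and Ctsh and 0.978 for Ctsh and Ctss. Cd68 ran opposite, with -0.954 to Ctsl. For each of these genes the rd1 FPKM range overlapped neither that of C3H nor that of rd2, so these r values are set mostly by the rd1 samples. The genes outside the 10 whose profile was most like their mean profile over 12 samples, of 19823 compared, were Bcl3 (0.998), H2-Q4 (0.997), Serpina3i (0.997), Axl (0.996) and Tnfaip2 (0.996). These r values describe samples that share group and library, and carry no test.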

How the data were processed

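Retina RNA of 12 mouse samples (3 per group) was analysed. The authors removed ribosomal RNA, made directional libraries, aligned reads to GRCm38 and counted them per gene with HTSeq 0.11.2, per the labels and the study's methods. HISAT2 is among the tools in the submitters' processing notes, which give it no role, and the strand setting is not given in the sources used here. The deposited gene table holds raw counts and FPKM values computed by the authors, and the second table holds back-splice junction counts per circRNA as deposited. A further 12 circRNA TPM columns were not used.

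Groups came from the sample titles. Counts were tested with edgeR 4.0.16 (R 4.3.3; TMM, filterByExpr, glmQLFit and glmQLFTest), each model against C3H in a fit of 6 samples and the models against each other in a fit of all 12. Calls used the study's thresholds (unadjusted p under 0.05 and at least 1.5-fold); adjusted p are Benjamini-Hochberg over all genes tested. Fold changes are relative to TMM scaling, FPKM levels are not, so small changes can differ in sign between them. The procedure was tested on simulated data. The rod marker calls in rd2 are not reported here. Promoter windows are RefSeq's and gene positions GENCODE vM21. Results were recomputed with DESeq2 1.42.0, with limma 3.58.1 on FPKM (log2, pseudocount 1 or 0.1), and with other size factors, filters, thresholds and sample sets.

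The 10 genes and all lists were chosen with earlier results of these data known. Genes named from a list were those with the smallest p: up to 4 in rd10 and 2 in each other comparison, with any gene needed to account for a count of 5 or fewer. Likeness was Pearson's r to the mean scaled profile of the 10 genes.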

Additional observations from a re-analysis of the deposited data

Results flagged for a closer look

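Differences between models, taken as direct contrasts in the 12-sample edgeR fit (log2 units), were set apart for 20 results. These were the ones called at unadjusted p under 0.05 and at least 1.5-fold. All 20 also had an edgeR adjusted p under 0.05, but smaller differences with such an adjusted p are not among them. In rd10 over rd1 they were 1.18 for Ctsb, 1.34 for Ctsc, 1.23 for Ctsd, 3.36 for Ctsh, 0.81 for Ctsl, 2.78 for Ctss, 1.19 for Ctsz, 1.92 for Cd68 and 3.80 for Lyz2. In rd10 over rd2 they were 0.77 for Ctsb, 1.5 for Ctsc, 1.04 for Ctsd, 2.15 for Ctsh, 2.2 for Ctss, 1.36 for Ctsz, 3.06 for Cd68 and 4.59 for Lyz2. In rd2 over rd1 they were 1.21 for Ctsh, -1.14 for Cd68 and -0.79 for Lyz2. Each model was sampled at its own postnatal day, so age and genotype cannot be told apart in these contrasts.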

How the results depend on the processing

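Of 1230 recomputed values for single genes under the alternatives, 1192 kept their direction and their side of the thresholds, 19 passed them newly, 8 no longer passed and 11 changed sign. The sign changes were all of small values: in rd1 over C3H Ctsc came to 0.00319 and Lgmn to 0.0101 with upper-quartile scaling, 0.0296 and 0.0486 with limma on log2(FPKM + 1), and 0.0356 and 0.0492 on log2(FPKM + 0.1). Ctsz in rd1 was -0.0145 and Cd68 in rd2 0.0242 against the C3H sample of the same day. Leaving out 1 sample, Ctsc in rd1 ranged from -0.11 to 0.02 (1.63e-05 without rd1 replicate 1 and 0.0175 without replicate 2), and Ctsd in rd2 from -0.13 to 0.0154, without rd2 replicate 3.

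Calls among the 10 genes in rd10 over C3H numbered 8 in every leave-one-out fit, with 9 against rd1 and 8 against rd2. In rd1 over C3H, 2 were called in each such fit, 0 with limma on log2(FPKM + 1) and 6 by adjusted p alone. In rd2 over C3H, 0 to 1 were called leaving out 1 sample, and 0 with limma at either pseudocount or with adjusted p and the fold threshold together. In rd2 over rd1, 3 to 4 were called leaving out 1 sample and 8 by adjusted p alone. Over all genes, limma on log2(FPKM + 1) called 1097 in rd1, 2035 in rd10, 166 in rd2, 2929 in rd10 over rd1, 1791 in rd10 over rd2 and 1115 in rd2 over rd1; adjusted p alone called 7906, 10115, 1802, 11224, 8614 and 7807. In rd2 over C3H the count over all genes, 850, was 1300 with no filter, 384 with the fold threshold on adjusted p, and 745 to 1435 leaving out 1 sample, highest without rd2 replicate 2. The cause of these shifts was not tested.

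With the replicate number as a replicate block, 8, 2 and 1 of the 10 genes were called in rd10, rd1 and rd2, as without it, and 4434, 2774 and 855 over all genes. In the contrasts between models 9 (rd10 over rd1), 8 (rd10 over rd2) and 3 (rd2 over rd1) of the 10 were called with the block, as without it. Same-numbered samples correlated at -0.0372 to 0.0334 between C3H and rd1, -0.251 to 0.0378 between C3H and rd10 and -0.256 to -0.0144 between C3H and rd2. Between models they correlated at -0.0186 to 0.283 (rd1 and rd10), -0.0329 to 0.432 (rd1 and rd2) and -0.00909 to 0.488 (rd10 and rd2). These were near 0 for number 1 and above 0.2 for numbers 2 and 3. Differently numbered samples correlated at -0.309 to 0.0835, -0.459 to 0.198 and -0.485 to 0.0726 in the same 3 pairs of models. Whether the numbers mark a factor shared between the models was not tested, and the main fits do not pair the samples. Cd68, at 18 to 31 reads per C3H library, is the least precisely measured of the 10.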

Other observations

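Of 12510 circRNAs listed, 2 came from the 10 genes, both from Lgmn. They had at most 2 back-splice reads in any sample and 6 in all, too few to compare groups, and the other 9 genes had none listed.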
